A study of Mus musculus with 12 samples.

Results

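Matrix metalloproteinases (MMPs) are zinc enzymes that cleave collagens, laminins, elastin and many signaling proteins outside the cell, and the tissue inhibitors of metalloproteinases (TIMPs) are small secreted proteins that bind to and block their active sites. Most MMPs are secreted as inactive proenzymes and are switched on by other proteases, so the mRNA level of an MMP does not give its activity. In the injured colon they are made by infiltrating leukocytes, by stromal cells and by the epithelium at the edge of ulcers. The genes described here were chosen by name as the gelatinases (Mmp2 and Mmp9), 4 further MMPs (Mmp7, Mmp12, Mmp14 and Mmp19) and the 4 TIMPs (Timp1, Timp2, Timp3 and Timp4). Earlier results of these data were known when the genes were chosen, so counts of called members are not set beside a blind choice. All 10 were measured, of 19938 genes in all, each with 1 probe set.

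RNA was assessed in colon tissue from 12 male wild-type C57BL/6 mice that were 7 weeks old when the protocol began. Each of the 4 groups held 3 mice, and each mouse had its own Affymetrix mouse Gene ST array. DSS+L-Arg mice drank 4% dextran sulfate sodium (DSS), which damages the colon epithelium, for 6 days and then 1% L-arginine (L-Arg) for 4 days, whereas DSS mice drank plain water in those 4 days. Ctrl+L-Arg mice received the same L-Arg without DSS, Ctrl mice received water alone, and all tissues were taken on day 10. The tissue was cut from the colon of each mouse, with proximal and distal samples pooled according to the methods, and in such bulk tissue fewer cells of a type and less RNA per cell cannot be told apart, and mice that lost too much weight or became moribund had been removed from the study. The labels number the mice within a group and do not say whether they shared a cage or a litter.

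Levels are given on the log2 scale of the deposited array values, on which a difference of 1 is a doubling, and levels of different genes are not compared because each probe set has its own brightness. Genes were called with limma, fitted over all 12 arrays and all genes, at an adjusted p under 0.05. The median over all probe sets was 6.49 to 6.64 in the 12 arrays. DSS 2 and DSS 3 stood farthest from the other arrays, at a mean distance (1 minus Pearson's r over all genes) of 0.0239 and 0.0281 against 0.0136 to 0.0172 in the other 10, while DSS 1 was closest to DSS+L-Arg 3. Colon epithelial markers were bright throughout, with 18 of 18 measured genes above the median gene, and their median differed from the Ctrl mean by at most 0.07 in any array, although 2 of the 18, Clca1 (-1.42) and Car4 (-0.58), fell with DSS (log2 fold change, limma).

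With DSS, 6 of the 10 genes rose and none fell. The 6 were Mmp9, Timp1, Mmp19, Mmp2, Mmp12 and Mmp14, and over all genes 1.8% were called higher and 2.23% lower in DSS than in Ctrl mice. The median log2 fold change was 1.40 over the 6 MMPs, 0.05 over the 4 TIMPs and -0.01 over all genes. Levels of DSS and Ctrl mice did not overlap for the same 6 genes, which were higher in every DSS mouse, and for Timp4, which was lower in every DSS mouse. Over all genes, 10.7% were higher and 14.3% lower with no overlap in this comparison. With L-Arg after DSS, 2 of the 10 fell relative to DSS alone, Mmp19 and Timp1, against 0.522% of all genes called lower and 0.115% called higher. For 7 of the 10, every DSS+L-Arg mouse lay below every DSS mouse, against 5.6% of all genes, but 5 of these 7 did not pass the adjusted threshold. Mmp14, Mmp19 and Timp1 also stand on a list that was drawn up from these same arrays, so their calls are not independent evidence of its direction.

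**Figure D1:**
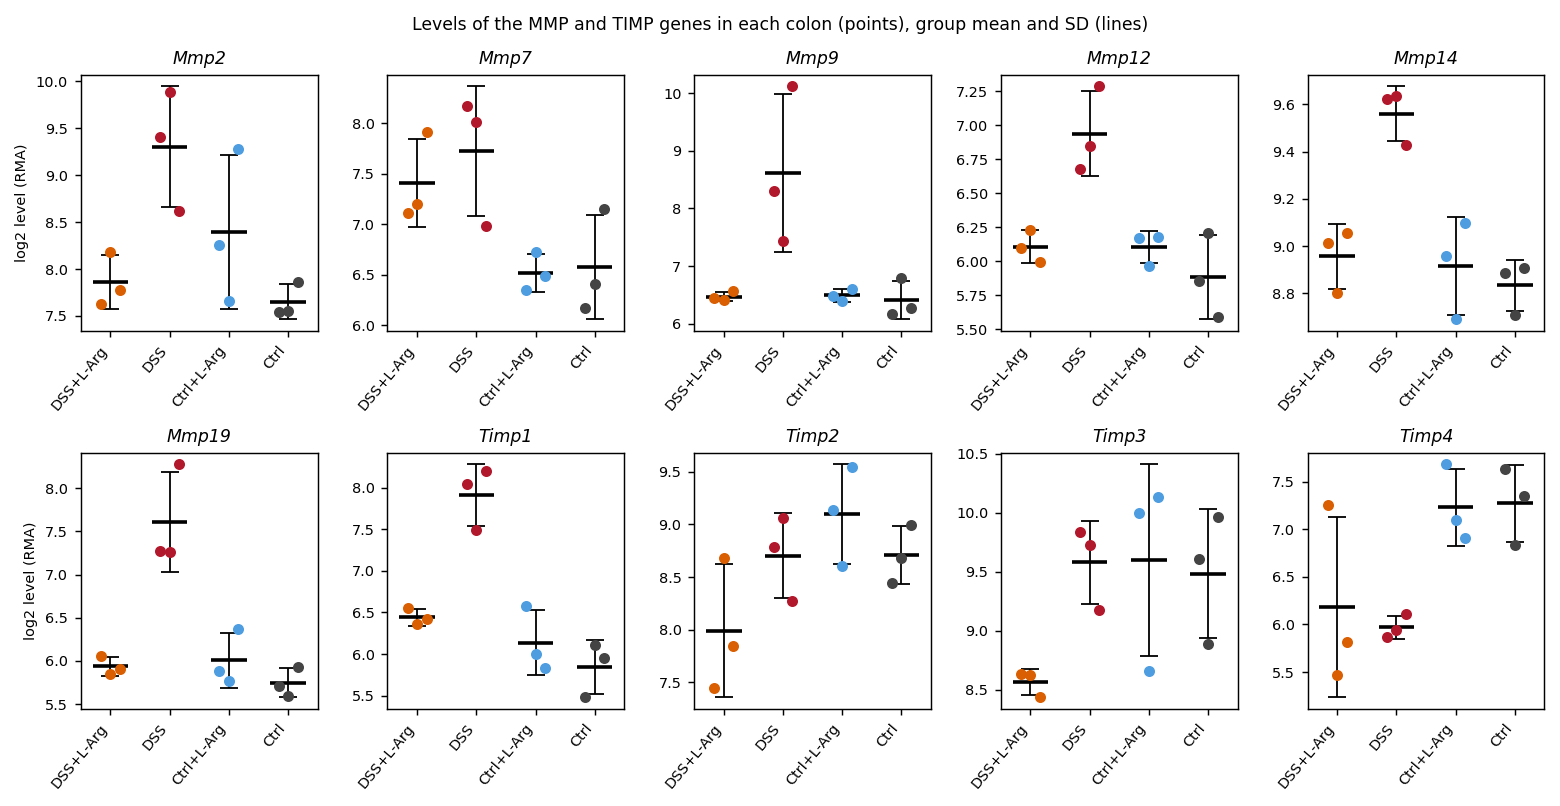
Log2 level (y axis, a separate scale in each panel) of the 6 MMP and 4 TIMP genes in the DSS+L-Arg, DSS, Ctrl+L-Arg and Ctrl groups (x axis), with 1 point per mouse and lines for the group mean and SD (n = 3 mice each). The 3 DSS mice lie above all Ctrl mice for Mmp2, Mmp9, Mmp12, Mmp14, Mmp19 and Timp1, whereas Timp4 lies below them.

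Promoter sequence was read for 7 of the 10 genes (all but Mmp2, Mmp9 and Mmp19), as windows of 300 bases around annotated starts (250 before and 50 after the start, RefSeq, GRCm38.p6). They were searched for TGANTCA, the binding motif of AP-1, a Fos and Jun transcription factor through which inflammatory signals are known to reach several MMP genes. The motif reads the same on both strands, and 7.81% of all 32851 windows of this length hold it. It was found in 2 of the 9 windows of these 7 genes, those of Mmp12 and Mmp7, and in none of the windows of Mmp14, Timp1, Timp2, Timp3 and Timp4. Mmp12 and Mmp7 are the only genes here with 2 windows, and only 1 of each pair holds the motif. The 250 bases before both Mmp12 starts (chr9:7344147-7344396 and chr9:7347124-7347373, both on the plus strand) and before the Mmp7 start with the motif (chr9:7691840-7692089, plus strand) are shown to set the windows with and without it side by side, with the motif in capitals.
Mmp12 first start: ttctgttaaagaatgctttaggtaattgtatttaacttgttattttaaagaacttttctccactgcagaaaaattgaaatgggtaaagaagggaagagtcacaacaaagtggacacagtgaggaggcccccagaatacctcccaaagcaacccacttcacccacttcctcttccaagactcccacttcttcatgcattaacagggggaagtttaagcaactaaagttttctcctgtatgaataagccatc
Mmp12 second start: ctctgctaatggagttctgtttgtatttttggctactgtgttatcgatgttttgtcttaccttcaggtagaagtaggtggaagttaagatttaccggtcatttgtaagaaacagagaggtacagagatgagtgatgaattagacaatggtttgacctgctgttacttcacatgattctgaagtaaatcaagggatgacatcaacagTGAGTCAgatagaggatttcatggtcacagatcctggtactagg
Mmp7 start with the motif: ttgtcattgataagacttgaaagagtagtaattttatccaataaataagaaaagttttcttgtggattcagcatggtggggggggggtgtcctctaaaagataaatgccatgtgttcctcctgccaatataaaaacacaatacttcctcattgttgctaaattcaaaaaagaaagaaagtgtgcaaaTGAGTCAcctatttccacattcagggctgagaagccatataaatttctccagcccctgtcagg
The first base of the motif lies 44 bases before the second Mmp12 start and 63 bases before this Mmp7 start. Timp1 holds the related letters TGAGTAA, a variant that was searched only after its window had been read and that 2.68% of all windows hold on either strand. They begin at base 27 counted from its start and are shown in capitals within 30 bases (chrX:20870181-20870210, plus strand).
Timp1: cggtgggtggaTGAGTAAtgcgtccaggaa
These are matches of letters, and binding was not measured in these samples.

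The gelatinases digest denatured collagen and the type IV collagen of basement membranes. Mmp9, which neutrophils and macrophages store or secrete, was the member with the largest change. It measured 8.30, 7.44 and 10.12 in DSS mice 1, 2 and 3, against 6.17, 6.79 and 6.28 in Ctrl mice. All 3 DSS mice were high, and DSS 3 was far above the other two. The log2 fold change was 2.21 ± 0.49 (SE, limma, n = 3 mice each, adjusted p = 0.031), a 4.61-fold increase with a 95% interval of 1.13 to 3.28 on the log2 scale. Without DSS 3 it was 1.46, and the call was lost when any Ctrl mouse, Ctrl+L-Arg 1 or DSS+L-Arg 3 was left out (adjusted p of 0.0068 to 0.117 over the 12 arrays left out in turn). The call was also lost in a fit of only the 2 groups and in the unequal-variance test. The SE and interval rest on 1 spread shared by the 4 groups, although the SD was 1.37 in DSS and 0.33 in Ctrl mice. In DSS+L-Arg mice Mmp9 measured 6.44, 6.41 and 6.57, below all DSS mice and within the range of Ctrl mice. The change relative to DSS was -2.15 ± 0.49 (SE, limma, adjusted p = 0.091), so it did not pass the threshold despite its size. The SD of Mmp9 among mice was 0.09 in the DSS+L-Arg group and 1.37 in the DSS group.

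Mmp2, a gelatinase made mainly by fibroblasts and other stromal cells, measured 9.41, 9.89 and 8.62 in DSS mice and 7.54, 7.55 and 7.87 in Ctrl mice. Its order among the DSS mice was the reverse of that of Mmp9, with DSS 3 the lowest. The log2 fold change was 1.65 ± 0.38 (SE, limma, adjusted p = 0.037), or 3.15-fold. This call was lost in 8 of the 12 fits that left out 1 array (any Ctrl mouse, Ctrl+L-Arg 1, DSS 1 or 2, DSS+L-Arg 2 or 3), with an adjusted p of 0.017 to 0.121 over the 12. It was also lost with the replicate block, a trended robust prior, a fit of only the 2 groups and the unequal-variance test. Ctrl+L-Arg mice measured 8.26, 7.66 and 9.28, so that Ctrl+L-Arg 3 exceeded DSS 3, and the DSS group was not called against Ctrl+L-Arg (0.91 ± 0.38, SE, limma, adjusted p = 0.206). In DSS+L-Arg mice the levels were 7.63, 8.18 and 7.78, all below the DSS mice, with a log2 change of -1.44 ± 0.38 (SE, limma, adjusted p = 0.143).

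Mmp12, the macrophage elastase, measured 6.68, 6.85 and 7.29 in DSS mice and 5.85, 6.21 and 5.59 in Ctrl mice. The groups did not overlap, and DSS 3 was again the highest. The increase was 1.05 ± 0.17 on the log2 scale (SE, limma, adjusted p = 0.0090), or 2.08-fold, and it passed the test whichever array was left out. The call was lost in a fit of only the 2 groups and in the unequal-variance test. DSS+L-Arg mice measured 6.10, 6.23 and 5.99, all below the DSS mice, and this difference of -0.83 ± 0.17 did not pass (SE, limma, adjusted p = 0.066).

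Mmp14, a membrane-anchored collagenase known to activate pro-MMP2 at the cell surface, had the smallest increase of the 6, with an SD among mice of 0.12 in the DSS and 0.11 in the Ctrl group. It measured 9.62, 9.63 and 9.43 in DSS mice and 8.88, 8.71 and 8.91 in Ctrl mice. The increase was 0.73 ± 0.12 on the log2 scale (SE, limma, adjusted p = 0.0090), or 1.66-fold. It passed with any array left out, but not in the unequal-variance test. In DSS+L-Arg mice the levels were 9.01, 8.80 and 9.06, below every DSS mouse, and the difference of -0.60 ± 0.12 just missed the threshold (SE, limma, adjusted p = 0.054). Mmp14 and Mmp2 both had their lowest DSS level in DSS 3, the mouse in which Mmp9, Mmp12, Mmp19 and Timp1 were highest.

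Mmp19, a secreted MMP that cleaves basement membrane proteins, measured 7.28, 7.26 and 8.28 in DSS mice and 5.71, 5.60 and 5.93 in Ctrl mice. It rose by 1.86 ± 0.25 on the log2 scale (SE, limma, adjusted p = 0.0031), or 3.63-fold. In DSS+L-Arg mice it measured 6.05, 5.85 and 5.91, close to the Ctrl levels, and the fall relative to DSS was -1.67 ± 0.25 (SE, limma, adjusted p = 0.018), or 3.19-fold lower. The increase with DSS passed with any array left out, but not in the unequal-variance test. The fall with L-Arg passed without any single DSS, Ctrl+L-Arg or Ctrl mouse, but was lost without any one of the 3 DSS+L-Arg mice, which leaves 2 mice in that group (adjusted p of 0.0062 to 0.099).

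Mmp7, or matrilysin, is made by epithelial cells and in the mouse small intestine activates the defensins of Paneth cells. It measured 7.11, 7.20 and 7.91 in DSS+L-Arg mice, 8.17, 8.01 and 6.98 in DSS mice, 6.35, 6.72 and 6.49 in Ctrl+L-Arg mice and 6.17, 6.41 and 7.15 in Ctrl mice. DSS and Ctrl mice overlapped through DSS 3 and Ctrl 3. The log2 differences were 1.15 ± 0.33 for DSS relative to Ctrl (SE, limma, adjusted p = 0.080) and 0.83 ± 0.33 for DSS+L-Arg relative to Ctrl (SE, limma, adjusted p = 0.339), and neither passed. In contrast with the other MMPs, its level in DSS+L-Arg mice overlapped that of DSS mice, at a difference of -0.31 (95% interval -1.04 to 0.41). Of 14 listed Paneth cell markers 8 were measured, Mmp7 among them. Their median lay 0.39 to 0.48 above the Ctrl mean in DSS+L-Arg mice, -0.02 to 1.15 in DSS mice and -0.14 to 0.08 in Ctrl mice. Of the 8, 0 were called by limma in DSS+L-Arg or in DSS relative to Ctrl mice. In DSS+L-Arg relative to Ctrl mice they did not move together, with log2 fold changes from -0.41 (Ang4) to 2.16 (Pla2g2a). The presence of such cells in these colons, and their part in the Mmp7 values, was not tested.

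Among the inhibitors, Timp1, the inducible TIMP that also has growth-promoting activity, had the smallest adjusted p of the 10 genes. It measured 8.04, 7.49 and 8.20 in DSS mice and 5.48, 6.11 and 5.95 in Ctrl mice, without overlap. The increase was 2.06 ± 0.23 on the log2 scale (SE, limma, adjusted p = 0.0015), or 4.18-fold, and it stayed between 1.88 and 2.27 when each array was left out. In DSS+L-Arg mice Timp1 measured 6.56, 6.36 and 6.42, below every DSS mouse and above every Ctrl mouse. The fall relative to DSS was -1.47 ± 0.23 (SE, limma, adjusted p = 0.023), or 2.76-fold lower, and it too was lost without any one of the 3 DSS+L-Arg mice (adjusted p of 0.014 to 0.117). The remaining difference to Ctrl was 0.60 (95% interval 0.10 to 1.10) and did not pass (limma, adjusted p = 0.318).

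The other three TIMPs did not share the course of Timp1. Timp2, a constitutive inhibitor that also takes part in the activation of pro-MMP2 by Mmp14, measured 8.78, 9.06 and 8.27 in DSS mice and 8.44, 8.68 and 8.998 in Ctrl mice, with full overlap and a difference of -0.01 (95% interval -0.72 to 0.71) that turned to 0.02 when arrays were centred on their median. Its lowest levels were in DSS+L-Arg mice, at 7.45, 8.68 and 7.84. Ctrl+L-Arg mice measured 9.14, 8.61 and 9.55. The difference between DSS+L-Arg and Ctrl+L-Arg mice was -1.11 ± 0.32 (SE, limma, adjusted p = 0.158).

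Timp3, which stays bound to the extracellular matrix and also blocks ADAM17, was lowest in the mice given both agents. It measured 8.64, 8.62 and 8.44 in DSS+L-Arg mice, 9.83, 9.73 and 9.18 in DSS mice, 10.00, 8.66 and 10.13 in Ctrl+L-Arg mice and 9.61, 8.89 and 9.96 in Ctrl mice. Each DSS+L-Arg mouse thus lay below every mouse of the other 3 groups, though only just below Ctrl+L-Arg 2. The log2 difference was -1.02 ± 0.36 relative to DSS (SE, limma, adjusted p = 0.261), -1.03 ± 0.36 relative to Ctrl+L-Arg (adjusted p = 0.220) and -0.92 ± 0.36 relative to Ctrl (adjusted p = 0.334), and none passed. Between DSS and Ctrl mice it differed by 0.10 (95% interval -0.70 to 0.90).

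Timp4, a TIMP with a restricted tissue pattern, was the only member lower in every DSS mouse than in every Ctrl mouse. It measured 5.87, 5.94 and 6.10 in DSS mice and 7.64, 6.84 and 7.35 in Ctrl mice, a difference of -1.30 ± 0.39 (SE, limma, adjusted p = 0.085). In DSS+L-Arg mice the levels were 7.26, 5.47 and 5.82, so that DSS+L-Arg 1 lay in the range of Ctrl mice and the other two below it. The SD in this group was 0.95, and with DSS+L-Arg 1 left out Timp4 was called lower in DSS than in Ctrl mice. The difference between DSS+L-Arg and Ctrl mice was -1.09 ± 0.39 (SE, limma, adjusted p = 0.292).

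**Figure D2:**
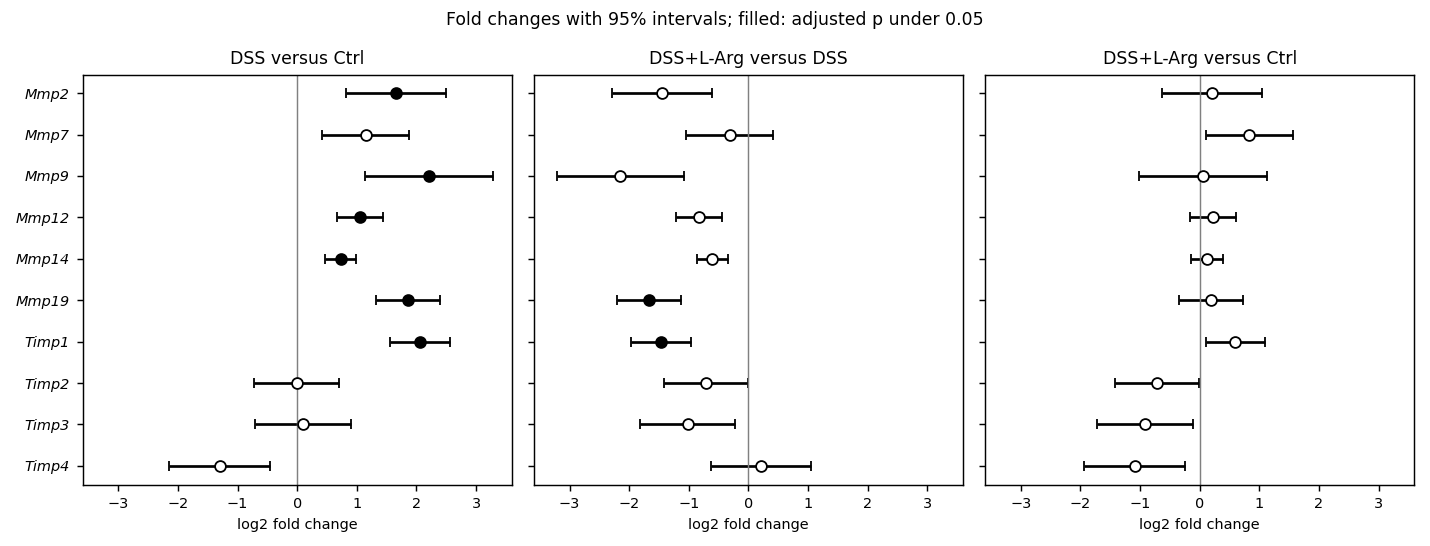
Log2 fold change (x axis) of each gene (rows) for DSS versus Ctrl, DSS+L-Arg versus DSS and DSS+L-Arg versus Ctrl, with 95% intervals from limma (n = 3 mice per group). Filled points have an adjusted p under 0.05, which are 6 genes in the first panel, Mmp19 and Timp1 in the second and none in the third.

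Compared with Ctrl, DSS+L-Arg mice had 0 of the 10 genes called by limma, while 5 had an unadjusted p under 0.05 (Mmp7, Timp1, Timp2, Timp3 and Timp4), as did 12.6% of all genes. Few genes were called in this comparison at all, with 0.0301% of all genes higher and 0.0351% lower at the adjusted threshold. The 5 MMPs that rose with DSS differed from Ctrl by 0.06 (Mmp9) to 0.22 (Mmp12) on the log2 scale in these mice, with Mmp2 at 0.21, Mmp14 at 0.12 and Mmp19 at 0.19. The difference to DSS and the difference to Ctrl share the DSS+L-Arg mice. Compared with Ctrl+L-Arg, DSS+L-Arg mice also had 0 of 10 called, against 0.201% of all genes called higher and 0.105% lower. An unadjusted p under 0.05 was found for 4 of the 10 and for 15.6% of all genes. In this comparison Mmp7 differed by 0.89, Mmp2 by -0.54 and Timp4 by -1.05.

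Without DSS, L-Arg gave no call. Log2 differences between Ctrl+L-Arg and Ctrl mice ran from -0.06 (Mmp7) to 0.75 (Mmp2). At an unadjusted p under 0.05 in limma were 0 of 10, against 3.44% of all genes. Over all genes 0% were called in either direction. DSS mice set against Ctrl+L-Arg mice, the other group without DSS, had 5 of the 10 higher and 0 lower (1.99% and 1.69% of all genes). These were Timp1 with a log2 fold change of 1.78, Mmp9 with 2.12, Mmp19 with 1.60, Mmp12 with 0.83 and Mmp14 with 0.64. The number dropped to 2, Mmp19 and Timp1, without Ctrl+L-Arg 1, and to 3 without Ctrl+L-Arg 2, Ctrl+L-Arg 3 or DSS 2. Mmp7 differed by 1.20 and Timp4 by -1.26 without passing.

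The effect of L-Arg with DSS was then set against its effect without DSS in 1 model. This difference was called for 0 of the 10 genes, against 0.01% of all genes called higher and 0.0652% lower. At an unadjusted p under 0.05 were 7 of the 10 and 10.8% of all genes. It came closest for Mmp19, at -1.93 ± 0.35 (SE, limma, adjusted p = 0.071), and Timp1, at -1.76 ± 0.32 (adjusted p = 0.077). It was -2.19 for Mmp2, -2.23 for Mmp9, -1.05 for Mmp12, -0.69 for Mmp14, -0.26 for Mmp7, -1.10 for Timp2, -1.13 for Timp3 and 0.26 for Timp4.

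When the same limma fit was read with the study's own cutoffs, an unadjusted p below 0.01 together with more than a 2-fold change, Mmp14 no longer counted with DSS because of its smaller fold change and Mmp7 and Timp4 did. This gave 6 higher and 1 lower in DSS than in Ctrl mice (1.32% and 0.813% of all genes). In DSS+L-Arg relative to DSS mice 4 were lower, Mmp2, Mmp9, Mmp19 and Timp1 (0.843%). This limma reading differs from the study's own list of genes raised by DSS and normalized with L-Arg. That list holds Mmp14, Mmp19 and Timp1 but not Mmp2 or Mmp9. DSS relative to Ctrl+L-Arg mice had 4 higher and 1 lower (1.31% and 0.848%), DSS+L-Arg relative to Ctrl+L-Arg mice had Timp2 lower (0.431%), and between the L-Arg effects with and without DSS 5 differed downward (0.858%).

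Markers of infiltrating cells moved in the same arrays. The median of 17 neutrophil markers, relative to the Ctrl mean, came to 1.83, 2.10 and 4.26 (log2) in DSS mice 1, 2 and 3, and to -0.21 to 0.49 in Ctrl mice. DSS 3, the mouse with the highest Mmp9, had the highest neutrophil value, but DSS 1 had more Mmp9 than DSS 2 (8.30 and 7.44) and a lower neutrophil value. Within the DSS, DSS+L-Arg and Ctrl+L-Arg groups the mice did not fall in the same order for this median as for Mmp9, and within the Ctrl group they did. The neutrophil median was 0.18 to 0.53 in DSS+L-Arg mice. With DSS, 11 of the 17 rose, Mmp8 among them, and with L-Arg after DSS 4 of the 17 fell. Over 24 monocyte and macrophage markers it came to 0.17 to 0.29 in DSS+L-Arg mice, 1.10, 1.22 and 1.76 in DSS mice and -0.17 to 0.09 in Ctrl mice. Of these, 15 rose with DSS and 7 fell with L-Arg after DSS. The part of these cells in the changes of Mmp9, Mmp12, Mmp19 and Timp1 was not tested.

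Stromal markers followed other arrays. The median of 19 fibroblast markers was 0.41, 0.35 and 0.03 in DSS mice 1, 2 and 3, lowest in DSS 3 as Mmp2 was, and 0.85 in Ctrl+L-Arg 3, the Ctrl+L-Arg mouse with the highest Mmp2. The value of Ctrl+L-Arg 3 lay above those of all DSS mice. For smooth muscle and endothelial markers too, DSS 3 was the lowest DSS mouse and Ctrl+L-Arg 3 the highest Ctrl+L-Arg mouse. Of the 19 fibroblast markers only Dcn and Pdgfra rose with DSS. Smooth muscle markers had a median of -1.14, -0.27 and -0.95 in DSS+L-Arg mice 1, 2 and 3, -0.59, -0.85 and -1.32 in DSS mice, 0.29, -0.69 and 1.08 in Ctrl+L-Arg mice and -0.31, -0.37 and 0.74 in Ctrl mice. None of the 12 was called by limma in DSS+L-Arg or in DSS relative to Ctrl mice, at a median log2 fold change of -0.84 with 2 at an unadjusted p under 0.05 and of -1.02 with 6 (12.6% and 19.6% of all genes). Within the DSS+L-Arg and Ctrl+L-Arg groups the mice fell in the same order for this median as for Timp2, and within the DSS and Ctrl groups they did not. The median of 13 endothelial markers was -0.40 to -0.09 in DSS+L-Arg mice, in which Timp3 was lowest, 0.06 to 0.73 in DSS mice, -0.11 to 0.57 in Ctrl+L-Arg mice and -0.17 to 0.11 in Ctrl mice. In DSS+L-Arg relative to DSS mice their median log2 fold change was -0.61, with 0 called by limma, 9 at an unadjusted p under 0.05 (13.5% of all genes) and 5 lower at the study's cutoffs. The part of fibroblasts in the Mmp2 values, and of muscle and endothelium in the TIMP values, was not tested.

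**Figure D3:**
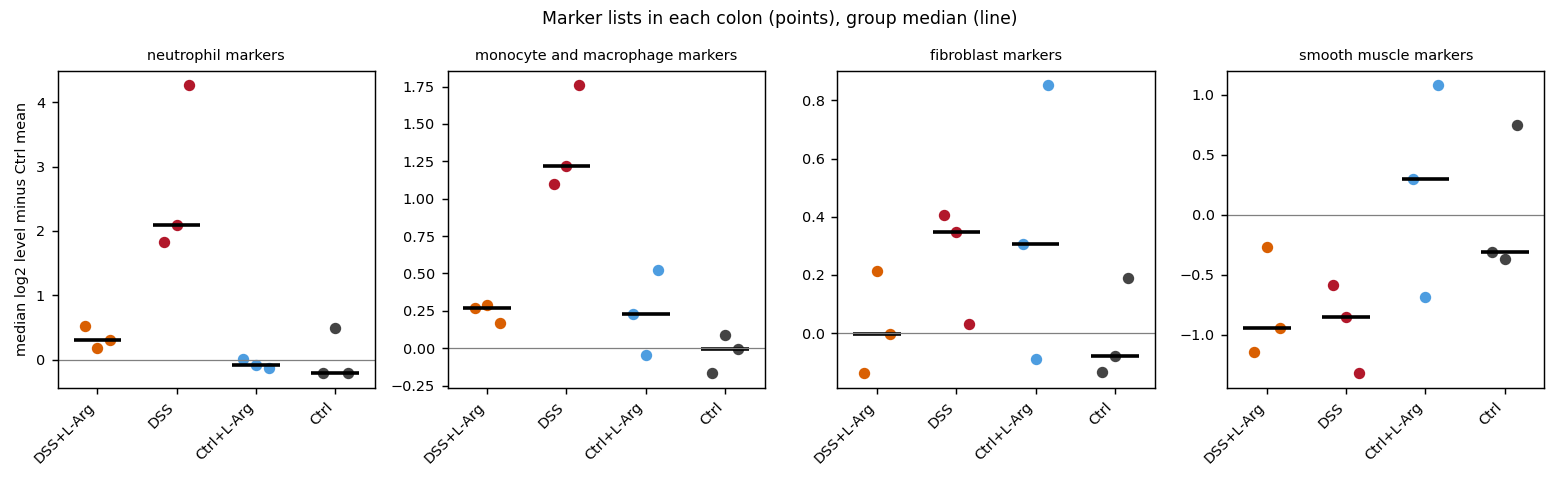
Median log2 level of 4 marker lists relative to the mean of Ctrl mice (y axis, a separate scale in each panel) in the DSS+L-Arg, DSS, Ctrl+L-Arg and Ctrl groups (x axis), with 1 point per mouse and a line at the group median. Neutrophil and macrophage markers are highest in the 3 DSS mice. Smooth muscle markers are below the Ctrl mean in all 6 mice given DSS, but also in Ctrl 1, Ctrl 2 and Ctrl+L-Arg 2.

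Mmp12 and Mmp7 lie in one run of neighbouring MMP genes on chromosome 9. In the RefSeq annotation of GRCm38.p6, which was used here for gene order, this run holds Mmp13, Mmp12, Mmp1b, Mmp3, Mmp1a, Mmp10, Mmp8, Mmp27, Mmp20 and Mmp7 with no other protein-coding gene between them. With DSS the collagenase Mmp13 rose by 5.09 on the log2 scale, the neutrophil collagenase Mmp8 by 3.55, and the stromelysins Mmp3 and Mmp10 by 3.41 and 3.16 (limma, adjusted p from 5.74e-05 to 0.013). Mmp12, between Mmp13 and Mmp1b, rose by 1.05, and Mmp7 at the other end differed by 1.15 without passing. Mmp1a, Mmp1b, Mmp20 and Mmp27, at 0.15 to 0.31, were not called. With L-Arg after DSS, the 4 genes with the largest increases fell relative to DSS alone, with log2 fold changes of -3.77 (Mmp13), -3.31 (Mmp8), -2.91 (Mmp3) and -2.78 (Mmp10). Of 16 other MMPs measured outside the 10 genes, these 4 were the only ones called in either comparison, and the median log2 fold change of the 16 with DSS was 0.17.

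**Figure D4:**
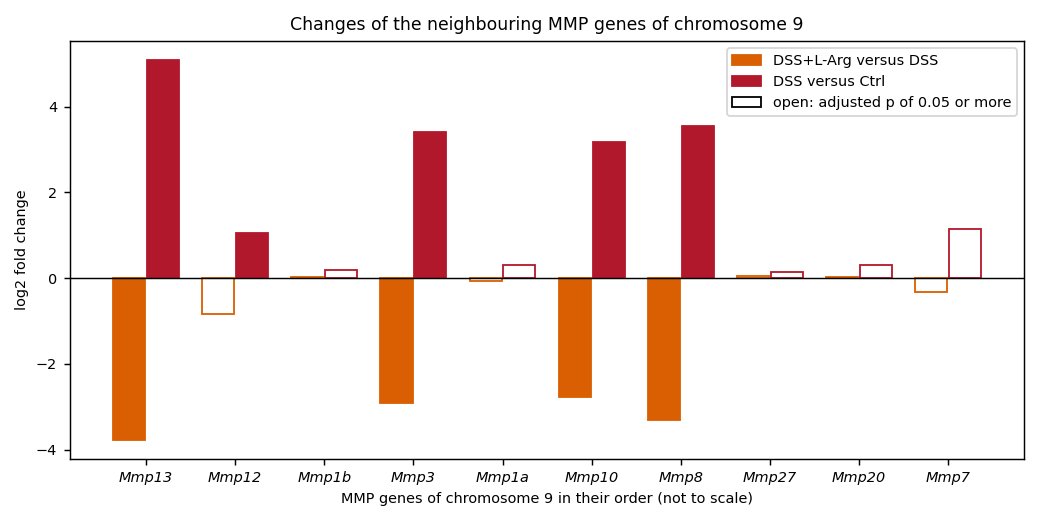
Log2 fold change (y axis) of the 10 neighbouring MMP genes of chromosome 9 in their order (x axis, not to scale), for DSS+L-Arg versus DSS (left bars) and DSS versus Ctrl (right bars), with filled bars for an adjusted p under 0.05. Mmp13, Mmp3, Mmp10 and Mmp8 rose with DSS and fell with L-Arg after DSS, and Mmp12 rose with DSS.

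Other proteases and regulators of the pathway were taken from lists, with log2 fold changes in parentheses. The median log2 fold change with DSS was 0.14 over the activators, 0.12 over the ADAM and ADAMTS genes and -0.04 over the other inhibitors. It was 0.34 over the genes of basement membranes and other matrix and 0.32 over collagens outside type IV, against -0.01 over all genes. Of 21 activators of pro-MMPs, 3 rose with DSS, the plasminogen activators Plau (2.79) and Plat (2.29) and the serine protease Prss22 (1.30), and Plau and Plat fell with L-Arg after DSS (-2.32 and -1.93). Of 18 ADAM and ADAMTS proteases, Adam8 (1.77), Adamts1 (1.60) and Adamts4 (1.15) rose and Adam15 fell by 1.20, and Adamts1 and Adamts4 fell with L-Arg (-1.35 and -0.98). Of 12 other inhibitors of matrix proteases only Thbs1 rose (1.31), and it fell by 1.82 with L-Arg. Of 26 genes of basement membranes, elastic fibres and other matrix, Tnc (1.73), Dcn (1.54), Lamc1 (0.72) and Col4a1 (0.56) rose, and Dcn and Lamc1 fell with L-Arg (-1.37 and -0.91). Of 12 collagen genes outside type IV only Col18a1 was called, rising by 0.78 with DSS and falling by 0.67 with L-Arg after DSS.

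The inducers listed were 25 cytokines, growth factors and receptors known to induce MMP or TIMP genes. Of these 25, Il6 (1.70), the oncostatin M receptor Osmr (1.55), Il11 (1.11) and Fgf2 (0.61) rose with DSS, against 1.8% of all genes called higher. Il1b (3.10), Il1a (2.75) and Tnf (1.43) were higher without passing (limma, adjusted p = 0.078, 0.103 and 0.0503). With L-Arg after DSS, Il6, Ccn2 and Il11 fell (-1.52, -1.06 and -0.91). Il1a (-2.68) and Il1b (-2.52) did not pass in that comparison. Of 18 transcription factors, 5 rose with DSS. The largest of these changes were Runx1 at 0.79, Ets1 at 0.77, Stat3 at 0.56 and Cebpb at 0.47, and the fifth was Junb at 0.47. The median with DSS was 0.32 over the 25 inducers and 0.05 over the 18 factors. None of the 18 was called with L-Arg after DSS by limma, while 6 had an unadjusted p under 0.05, as did 13.5% of all genes.

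The genes whose levels were most like those of each called member were found over the 12 mice with Pearson's r, which here carries the differences between the 4 groups and is given as a description. For Mmp9 these were AB124611 (0.99), Igsf6 (0.99) and Gpr84 (0.99). For Mmp2 they were the fibroblast markers Pdgfra (0.98) and Dcn (0.96) and the complement inhibitor Serping1 (0.96). Mmp12 was most like Ifitm1 (0.96), the scavenger receptor Msr1 (0.96) and Tlr13 (0.95), and Mmp14 most like Igfbp5 (0.97), Hif3a (0.97) and Mgp (0.96). Mmp19 was closest to Clec4a1 (0.98), the inhibitory Fc receptor Fcgr2b (0.98) and the myeloid adaptor Tyrobp (0.97), and Timp1 to Ms4a6d (0.96), Runx3 (0.96) and Ifitm6 (0.95).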

How the data were processed

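The log2 values per probe set were deposited by the authors, who name Affymetrix Expression Console 1.1, RMA and build mm9. RMA subtracts background, quantile-normalizes arrays and summarizes probes, which would hide a shift common to most genes. Of 35556 probe sets, 21789 with exactly 1 gene in the platform table were used, the brightest per gene. The 10 genes and the lists were chosen with earlier results of these data known. All members, up to 4 called genes per list with the largest change and the 3 genes most like each called member are named.

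Tests used limma 3.58.1 (R 4.3.3), fitting group means to all 12 arrays (8 residual degrees of freedom) and Benjamini-Hochberg adjustment over 19938 genes. On simulated data for DSS versus Ctrl, limma recovered 44.8% of genes changed 1.5-fold, 88.1% of those changed 2-fold and 93.9% of those changed 4-fold, with 8 false calls. The simulation gave a gene the same spread in all groups, so these rates do not cover genes such as Mmp9, whose spread differed between groups. The number of arrays limits the precision. Each limma p-value sets a difference against 1 estimate of the spread between mice, shared by the 4 groups and drawn toward that of all genes. Alternatives were a 2-group fit, a replicate block, centring, quantile normalization, a low-value filter, probe-set means, another prior, array weights, an unequal-variance test, the study's thresholds, and leaving out each array. Only between Ctrl+L-Arg and Ctrl did all same-numbered mice deviate together (correlations of 0.205, 0.477 and 0.261), a pairing the labels do not state. SAM, which the study names, was not rerun. Text was handled with Python 3.11.15 and pandas 2.3.3.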

Additional observations from a re-analysis of the deposited data

How the results depend on the processing

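Counts of called members changed under several alternatives. Except for the study's thresholds, the share of all genes called was not kept for the alternatives, arrays left out included. A low count can therefore not be read as particular to the members. In fits of only the 2 groups compared, 3 were higher in DSS than in Ctrl mice (Mmp14, Mmp19 and Timp1), 0 were lower in DSS+L-Arg than in DSS mice and 0 higher in DSS than in Ctrl+L-Arg mice. The unequal-variance test gave 0, 0 and 0 for the same comparisons. With the replicate block, 5 were higher with DSS, as Mmp2 was lost, Timp4 made 1 lower with DSS, and Mmp19 made 1 lower in the contrast of L-Arg effects with and without DSS. The replicate block on Ctrl+L-Arg and Ctrl mice alone, added after seeing the data, called 0. The trended robust prior also lost Mmp2 with DSS (5 higher) and Mmp9 in DSS relative to Ctrl+L-Arg mice (4 higher). Array weights gave 7 higher with DSS (Mmp7 added), 3 lower in DSS+L-Arg than in DSS mice (Mmp9 added), 4 higher in DSS than in Ctrl+L-Arg mice (Mmp12 lost), 1 lower in DSS+L-Arg than in Ctrl+L-Arg mice (Timp2) and 2 in that contrast (Mmp19 and Timp1). The study's thresholds gave 1 lower with DSS, 4 lower in DSS+L-Arg than in DSS mice, 1 lower in DSS+L-Arg and 1 lower in DSS than in Ctrl+L-Arg mice, and 5 in that contrast.

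With each array left out in turn, members higher with DSS numbered 4 to 7 and lower 0 to 1 (Timp4 without DSS+L-Arg 1). Members lower in DSS+L-Arg than in DSS mice numbered 0 to 3, with 0 without any one DSS+L-Arg mouse. Relative to Ctrl+L-Arg mice, 0 to 1 were lower in DSS+L-Arg mice (Timp3 without Ctrl+L-Arg 2), and 2 to 5 were higher and 0 to 1 lower in DSS mice. The contrast of L-Arg effects had 0 to 1 lower. Changes of sign occurred for small differences that were not called. With DSS, Timp2 was 0.024 after centring, 0.031 after quantile normalization, 0.046 with array weights and -0.18 to 0.21 with arrays left out, and Timp3 was -0.20 to 0.33. Timp4 was -0.33 to 0.56 in DSS+L-Arg relative to DSS mice and -0.28 to 0.61 in that contrast. Mmp9 was -0.061 to 0.25 in DSS+L-Arg relative to Ctrl mice, and Mmp7 was -0.26 to 0.23 in Ctrl+L-Arg relative to Ctrl mice. The causes were not tested.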
